A study of Mus musculus with 3 samples.

Results

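Sterol and fatty acid synthesis was examined through 30 genes, of 24812 genes named on the array: 17 enzymes of the cholesterol pathway, 7 genes of fatty acid synthesis, 5 regulators of the sterol response and the sterol carrier Stard4. They were chosen by gene symbol, older aliases included. The cells were CLDE, a line of dental epithelial cells derived from the cervical loop of the mouse incisor, where the epithelial stem cells of the growing tooth lie. The 3 groups were cells transfected with an siRNA against keratin 15 (siKrt15), cells transfected with a non-targeting control siRNA (siNeg) and cells taken through a mock transfection (mock), all harvested 72 h after transfection, with 1 array per group. All the groups share the line and, per the labels' protocols, its keratinocyte medium, and the siRNAs were delivered with Lipofectamine RNAiMax. What the mock transfection held is not given in the sources used here. The series title sets the wider question, the part of keratin 15 in the proliferation of the outer enamel epithelium.

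Cholesterol is built from acetyl-CoA through the mevalonate pathway to isoprenoid units, which are joined to squalene, closed to lanosterol and trimmed to cholesterol. Transcription of these enzymes is driven by SREBP-2 (Srebf2) and that of fatty acid synthesis mainly by SREBP-1 (Srebf1), membrane-bound factors that the escort protein SCAP carries to the Golgi for cleavage when sterols in the endoplasmic reticulum are low. INSIG proteins hold SCAP back when sterols are plentiful, and Insig1 is itself a target of the SREBPs. Synthesis is known to follow growth, since dividing cells need membrane.

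The promoters of 6 of these genes are printed because the enzymes are known to share binding sites for SREBPs and for NF-Y, the factor that binds CCAAT boxes beside them. Each sequence is the last 150 bases before the annotated start of transcription, 5′ to 3′ on the gene's own strand, from RefSeq on GRCm38.p6. After normalization, Hmgcs1, Mvd, Cyp51 and Msmo1 were lower on the siKrt15 array than on the siNeg array, Tm7sf2 was higher there, and Fasn differed by less than the scanner's error. Capitals mark CCAAT on either strand and, in Hmgcs1, a match to the sterol regulatory motif TCACNCCAC. In Fasn one CCAAT overlaps its own reverse complement.
Hmgcs1 (chr13:119690201-119690350, plus strand): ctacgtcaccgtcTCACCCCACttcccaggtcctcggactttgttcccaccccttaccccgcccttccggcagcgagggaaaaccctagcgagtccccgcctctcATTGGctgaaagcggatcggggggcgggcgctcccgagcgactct
Mvd (chr8:122443423-122443572, minus strand): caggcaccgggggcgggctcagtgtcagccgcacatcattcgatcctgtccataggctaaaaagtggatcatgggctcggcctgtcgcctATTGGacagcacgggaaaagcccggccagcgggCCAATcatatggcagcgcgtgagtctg
Cyp51 (chr5:4104698-4104847, minus strand): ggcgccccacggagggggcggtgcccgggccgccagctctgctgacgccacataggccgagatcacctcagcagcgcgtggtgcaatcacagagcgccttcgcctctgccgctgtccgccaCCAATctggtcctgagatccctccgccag
Msmo1 (chr8:64733579-64733728, minus strand): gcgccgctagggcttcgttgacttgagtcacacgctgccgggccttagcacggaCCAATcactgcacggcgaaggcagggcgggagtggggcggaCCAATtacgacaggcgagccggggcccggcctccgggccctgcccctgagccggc
Tm7sf2 (chr19:6067851-6068000, minus strand): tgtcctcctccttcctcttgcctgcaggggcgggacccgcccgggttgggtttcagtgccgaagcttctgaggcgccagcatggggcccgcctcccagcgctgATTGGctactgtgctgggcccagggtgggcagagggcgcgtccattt
Fasn (chr11:120824548-120824697, minus strand): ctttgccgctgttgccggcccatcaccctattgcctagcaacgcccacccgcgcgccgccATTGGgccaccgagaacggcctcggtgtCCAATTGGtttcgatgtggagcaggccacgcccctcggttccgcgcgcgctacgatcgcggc

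RefSeq windows from 250 bases before to 50 bases after the start were at hand for 24 of the 30 genes, and a gene with several windows counts where any of them matches. CCAAT, searched on both strands, was present in 14 of 14 cholesterol enzymes with a window, 3 of 5 fatty acid genes and 4 of 5 regulators, against 41.1% of 27025 genes with a window. GGGCGG, the core of the GC box bound by Sp1, was present in 13 of 14 cholesterol enzymes, 2 of 5 fatty acid genes and 5 of 5 regulators, against 38.2% of genes. The motif TCACNCCAC was found in Hmgcs1 alone of these 24 genes, and in 1.44% of all genes. CACGTG, an E-box, was present in 3 of 14 cholesterol enzymes, 0 of 5 fatty acid genes and 2 of 5 regulators, against 8.09% of genes. CCAAT was thus present in enzymes with a lower normalized level and also in Tm7sf2 and Pmvk, which had a higher one in siKrt15 cells than in siNeg cells.

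The labels of the 2 siRNA arrays are crossed: the siRNA in an array's description and treatment field is the one that the other array has in its title and source name. The titles were followed here. The Krt15 probe had a signal of 267 on the siKrt15 array, 1647 on the siNeg array and 2638 on the mock array, and was thus lowest where the title names the Krt15 siRNA. Its normalized difference was -2.88 ± 0.20 on the log2 scale for siKrt15 against siNeg, and that of siNeg against mock was -0.60. Between 67.3% and 69.2% of 59305 probe spots were well above background on an array, and no spot was saturated. All 8 epithelial markers (among them Krt5, Krt14 and Trp63) were well above background on each array, with a summed signal of 290014, 265872 and 242619 in siKrt15, siNeg and mock cells. Such sums are not scaled between arrays, and here the Perp probe alone had 65413, 62227 and 38633. Of 8 mesenchymal markers 6 were above background, with summed signals of 322, 355 and 378 and with Pdgfrb and Lum not above it. The 6 measured mesenchymal markers had a median of -0.69 for siKrt15 against siNeg, where all genes had -0.08. Of the 6, 5 were below 0, against 60.6% of all genes, and 3 were at least 1.5-fold lower, against 8.63%. The 3 were Dcn at -1.07, Pdgfra at -0.94 and Col3a1 at -0.80, while Col1a1 was at 0.85. Signals on the siKrt15 and siNeg arrays were only 10.5 and 16.9 for Pdgfra and 4.84 and 7.02 for Col3a1. For Dcn they were 85.8 and 150.5. The epithelial markers, Krt15 included, had a median of -0.17, with 6 of 8 below 0, against 60.6% of all genes. The 2 above 0 were Epcam, at 0.53, and Itga6, at 0.41. The part of such shifts in the lipid genes was not tested. Of 6 blood and endothelial markers 4 were above background, with sums of 1443, 1352 and 1619, carried mostly by the Ptprc probe. Of 8 markers of adipocytes and hepatocytes, which make much lipid, 4, 4 and 3 were above background, with sums of 154, 143 and 131, and the hepatocyte markers Alb, Apoa1 and Ttr were not above it on any array.

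Levels are given as log2 of the processed signal minus the log2 of the array's 75th percentile, so a level of 0 is the signal of a probe at that percentile, and a gene's level is the mean of its probes. Levels of different genes are not compared, because probes differ in how strongly they bind. With 1 array per group there is no spread between replicates and no test. The ± beside a difference is an SD from the scanner's error model, which presets a multiplicative error of 10% per signal and so gives about 0.20 for a bright gene. It does not hold the variation between cultures. Of the 61 probes of the 30 genes, 60 were well above background on all 3 arrays, and every gene had at least 1 such probe. Fewer cells making a transcript and less transcript per cell cannot be told apart in such arrays.

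The enzymes of cholesterol synthesis were lower in siKrt15 cells than in siNeg cells for 15 of 17 genes, with a median difference of -0.36 on the log2 scale, against a median of -0.08 over all 17121 genes measured. The genes of fatty acid synthesis had a median difference of 0.05, with 3 of 7 lower, and the median of the cholesterol enzymes minus theirs was -0.42. The regulators had a median difference of -0.31, with 3 of 5 lower. The sizes were small. In all, 22 of the 30 genes had a difference below 0, against 60.6% of all genes measured, and 3 (Hmgcs1, Acss2 and Insig1) were at least 1.5-fold lower, against 8.63% of all genes. None of the 30 was at least 1.5-fold higher, against 4.8% of all genes. The count past 1.5-fold is close to the background and is not a result about these genes. Dim genes differ more, so the 24 of the 30 with at least the median signal of all genes were also set against the 8561 genes as bright. Of these 24, 1 (Hmgcs1) was at least 1.5-fold lower, against 2.43% of such genes. Among 16 bright cholesterol enzymes 8 lay in the lowest 10% of such genes, and none of the 4 bright fatty acid genes did.

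**Figure D1:**
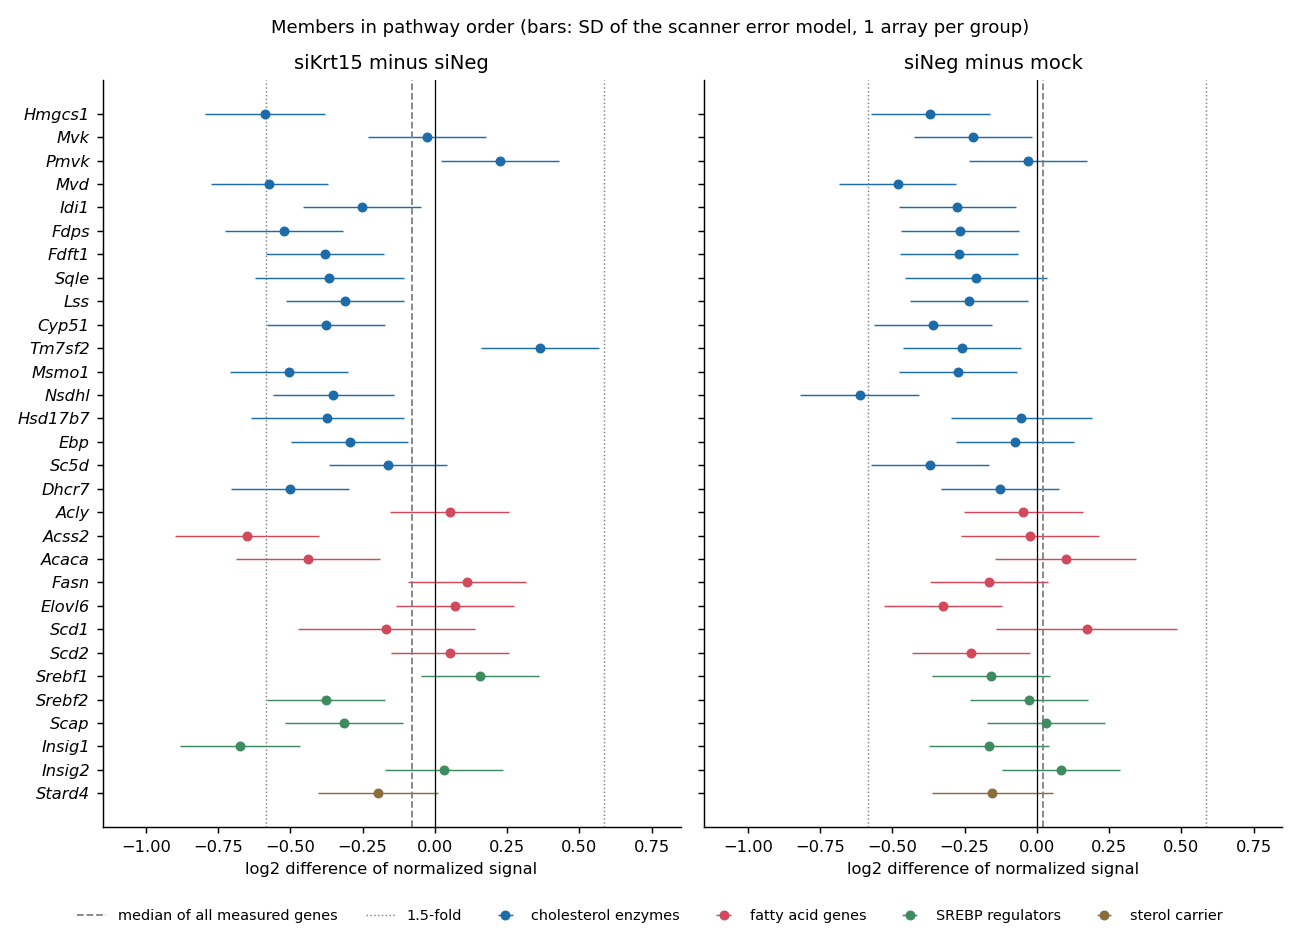
Log2 differences (x axis) of the 30 genes in pathway order, for siKrt15 minus siNeg (left) and siNeg minus mock (right), with colour giving the gene group, dotted lines 1.5-fold and the dashed line the median of all measured genes. Bars are the SD of the scanner's error model, not a replicate error. The cholesterol enzymes lie mostly left of 0, with Pmvk and Tm7sf2 right of 0 in the left panel, and their median there is -0.36 in the scaling drawn and -0.04 when arrays are scaled on spike-in probes.

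The direction of the smaller differences depends on how the arrays are scaled. The 75th percentile of the signal was 216.0 on the siKrt15 array, 180.4 on the siNeg array and 191.1 on the mock array, so a gene with equal signal on the siKrt15 and siNeg arrays takes a difference below 0. Idi1, for instance, had unscaled signals of 1885, 1874 and 2400.4 in siKrt15, siNeg and mock cells. Scaling on the median of all probes or on 9 spike-in probes instead moved the median of all genes for siKrt15 against siNeg by 0.22 or 0.32. Under spike-in scaling, Mvk, Idi1, Lss, Ebp and Sc5d turned to differences above 0, and the other 10 of the 15 enzymes stayed below 0. Set against the median of all genes under the same setting, the enzymes' median differed by -0.29 in the main setting and by -0.34 to -0.17 over 11 settings, and 13 to 15 of the 17 enzymes lay below that median in each. Scaling on the median, on spike-in probes or on the probes above background moves every gene by 1 constant. These relative values could not change there. Genes past 1.5-fold over the whole array were likewise sensitive, with 821 higher and 1477 lower in siKrt15 cells under the main scaling, a share of 35.7% higher, against 84.0% under spike-in scaling, 70.8% under median scaling and 62.9% under quantile normalization.

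The first enzymes lead from acetyl-CoA to farnesyl diphosphate, and 6 of them are in the set, with a median difference of -0.39 for siKrt15 against siNeg. Hmgcs1, the cytosolic synthase of HMG-CoA, had a level of 1.24 in siKrt15 cells, 1.83 in siNeg cells and 2.20 in mock cells. The siKrt15 array was the lowest, and the difference from siNeg was -0.59 ± 0.21, with its 2 probes at -0.68 and -0.49. Mvd, which decarboxylates mevalonate diphosphate to the first isoprenoid unit, had levels of 1.79, 2.37 and 2.85 in siKrt15, siNeg and mock cells, a difference of -0.57 ± 0.20 from siNeg on 1 probe (chromosome 8, 124957750 to 124957809 on mm9, per the array's annotation). Fdps, farnesyl diphosphate synthase, had levels of 5.90, 6.42 and 6.69, a difference of -0.52 ± 0.20. These 3 enzymes stood in the same order of arrays, lowest with siKrt15 and highest with mock. Of these 8561 bright genes, 2.35% were lower than Hmgcs1, 2.57% lower than Mvd and 3.60% lower than Fdps.

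The other mevalonate enzymes differed less or the other way. Idi1, which interconverts the isoprenoid units, had levels of 3.13, 3.38 and 3.65 in siKrt15, siNeg and mock cells, a difference of -0.25 ± 0.20 from siNeg. Mvk, mevalonate kinase, had levels of 1.92, 1.95 and 2.17, a difference of -0.03 ± 0.20 that is well inside the scanner's error. Pmvk, the kinase of the following step, had levels of 2.95, 2.73 and 2.76, and was 0.22 ± 0.20 higher in siKrt15 cells, with probes at 0.21 and 0.24. Neither kinase was below siNeg by more than the scanner's error.

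From farnesyl diphosphate to lanosterol, all 3 enzymes were lower in siKrt15 cells than in siNeg cells, by less than 1.5-fold, where 60.6% of all genes were lower. Fdft1, squalene synthase, had levels of 3.67 in siKrt15 cells, 4.05 in siNeg cells and 4.32 in mock cells, a difference of -0.38 ± 0.20 from siNeg. Sqle, the squalene epoxidase that takes a rate-controlling oxygen step, had levels of 0.25, 0.62 and 0.83, a difference of -0.36 ± 0.26. Lss, lanosterol synthase, had levels of 2.61, 2.92 and 3.16, a difference of -0.31 ± 0.20 that turned to 0.01 under spike-in scaling. All 7 probes of these genes gave values below 0 in the main scaling, between -0.40 and -0.25.

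Beyond lanosterol, 7 of 8 enzymes were lower in siKrt15 cells than in siNeg cells, against 60.6% of all genes, with a median difference of -0.36. Cyp51, the lanosterol demethylase, had levels of 1.15 in siKrt15 cells, 1.53 in siNeg cells and 1.89 in mock cells, a difference of -0.38 ± 0.20 from siNeg. Msmo1, the sterol methyl oxidase, had levels of 3.01, 3.51 and 3.79, a difference of -0.50 ± 0.20, with its 3 probes between -0.75 and -0.37. Dhcr7, which makes cholesterol from its last precursor on one branch of the pathway, had levels of 1.06, 1.57 and 1.69, a difference of -0.50 ± 0.20. In these genes too the siKrt15 array was the lowest. Ebp, the sterol isomerase, had levels of 3.34, 3.63 and 3.71, a difference of -0.30 ± 0.20. Sc5d, the sterol desaturase, had levels of 1.94, 2.10 and 2.47, a difference of -0.16 ± 0.20 from siNeg. Ebp and Sc5d are among the genes that turn above 0 with spike-in scaling.

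For 2 enzymes of this stretch the value rests in part on dim probes. Nsdhl, the sterol dehydrogenase that removes a carboxyl group with Msmo1, had levels of -0.93 in siKrt15 cells, -0.58 in siNeg cells and 0.03 in mock cells, a difference of -0.35 ± 0.21 from siNeg, with probes at -0.62 and -0.08. Hsd17b7, the ketosteroid reductase of the same demethylation complex, had levels of -0.28, 0.10 and 0.15, a difference of -0.37 ± 0.27. Its dimmest probe, with signals of 5.44, 7.99 and 8.17, gave -0.82, and the other 2 gave -0.16 and -0.14. The median of all genes was -0.08.

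Tm7sf2 was the exception beyond lanosterol. It encodes a sterol reductase that acts directly after the demethylase and shares that reaction with the lamin B receptor. It had levels of 1.31 in siKrt15 cells, 0.95 in siNeg cells and 1.21 in mock cells, and was 0.36 ± 0.20 higher in siKrt15 cells than in siNeg cells, with probes at 0.31 and 0.42 (one of them at chromosome 19, 6062882 to 6062941 on mm9). The siNeg array was here the lowest of the 3. Of the bright genes, 92.0% had a lower difference.

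**Figure D2:**
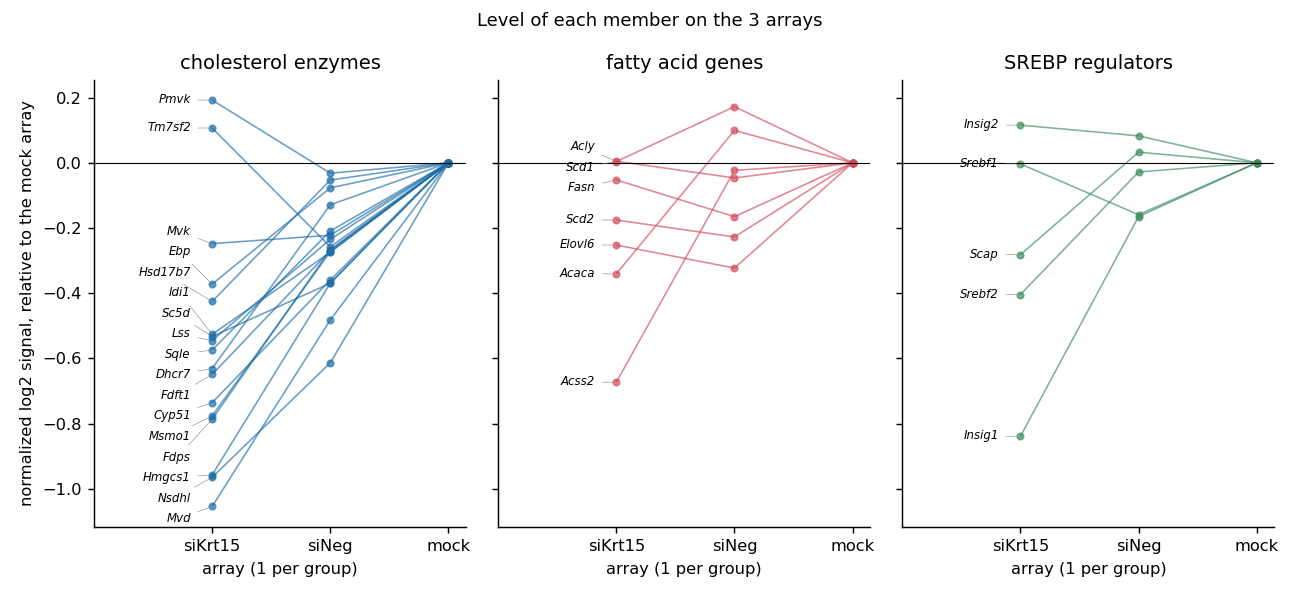
Normalized log2 level of each cholesterol enzyme, fatty acid gene and regulator on the siKrt15, siNeg and mock arrays, 1 point per array, drawn relative to the gene's own level on the mock array, with lines joining the points of a gene. For Hmgcs1, Mvd, Fdps and Msmo1 the siKrt15 point is the lowest and the mock point the highest, while the 3 points of Fasn, Acly and Scd2 lie within 0.23 of each other. Spike-in scaling would raise all siKrt15 points by 0.16 and lower all siNeg points by 0.16 against mock, a shift of 0.32 between the siRNAs.

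The 4 fatty acid genes whose mean signal was bright lay close to 0 for siKrt15 against siNeg. Fasn, the fatty acid synthase, had levels of 5.46 in siKrt15 cells, 5.35 in siNeg cells and 5.51 in mock cells, a difference of 0.11 ± 0.20 from siNeg on 1 probe (chromosome 11, 120668460 to 120668519 on mm9). Acly, which supplies cytosolic acetyl-CoA from citrate, had levels of 1.79, 1.74 and 1.78, a difference of 0.05 ± 0.21, with probes at -0.05 and 0.15. Scd2, a stearoyl-CoA desaturase, had levels of 5.64, 5.58 and 5.81, a difference of 0.05 ± 0.20. Elovl6, which lengthens palmitate, had levels of 0.49, 0.42 and 0.74, a difference of 0.07 ± 0.20. None of these 4 genes moved by more than the scanner's error between the siRNAs in the main scaling, and all 4 were above 0 in each of 11 settings. Under spike-in scaling, which lifts all genes, the median of the fatty acid genes was 0.37.

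The 3 remaining fatty acid genes were below 0 and rest wholly or partly on dim probes. Acss2, which activates acetate to acetyl-CoA, had levels of -2.57 in siKrt15 cells, -1.92 in siNeg cells and -1.90 in mock cells, a difference of -0.65 ± 0.25 from siNeg. Its 4 probes ran from -1.05 to -0.22, with the brightest probe at -0.22, so the size of this difference depends on the probe. Acaca, acetyl-CoA carboxylase and the committed step of fatty acid synthesis, had levels of -2.49, -2.05 and -2.15, a difference of -0.44 ± 0.25, with 7 probes from -1.04 to -0.19. Its brightest probe, with signals of 1762, 1808 and 2015, gave -0.30, and its next, with signals of 145, 154 and 171, gave -0.35. In the main scaling the lower value of Acaca is thus not confined to dim probes. Spike-in scaling raises siKrt15 against siNeg differences by 0.32, about the size of these 2 values, and gave Acaca a mean of -0.12. Scd1, the desaturase best known in liver and fat, had signals of 9.10, 8.54 and 8.03 in siKrt15, siNeg and mock cells on the 1 probe above background, and a normalized difference of -0.17 ± 0.31. Over the 60 probes of the set, the 14 with a signal under 50 on either array had a median difference of -0.56 and the 46 brighter ones a median of -0.27.

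**Figure D3:**
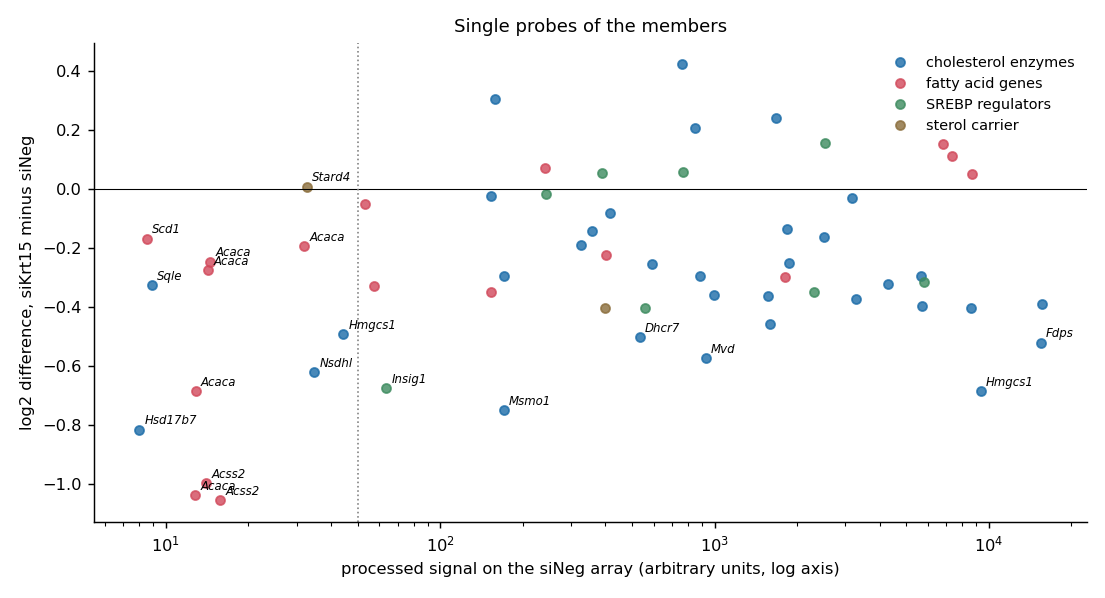
Log2 difference, siKrt15 minus siNeg, of each of the 60 probes well above background (y axis) against its signal on the siNeg array (x axis, log scale), with colour giving the gene group and the dotted line a signal of 50. The lowest probes, of Acss2 and Acaca, lie left of that line.

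Among the regulators, Insig1, Srebf2 and Scap were lower in siKrt15 cells than in siNeg cells in the main scaling, and Insig2 and Srebf1 were not. Insig1, which retains SCAP in the endoplasmic reticulum, had levels of -2.18 in siKrt15 cells, -1.50 in siNeg cells and -1.34 in mock cells. The difference from siNeg was -0.67 ± 0.21, or 1.60-fold lower, on 1 probe with signals of 47.7, 63.6 and 75.5. Insig2, its paralog, had levels of 1.24, 1.21 and 1.13, a difference of 0.03 ± 0.20. Srebf2, which encodes SREBP-2, had levels of 2.28, 2.66 and 2.69, a difference of -0.38 ± 0.20, and 2 probes at -0.40 and -0.35. Srebf1, which encodes SREBP-1, had levels of 3.97, 3.81 and 3.97, and was 0.16 ± 0.20 higher in siKrt15 cells, inside the scanner's error. Scap had levels of 4.69, 5.01 and 4.98, a difference of -0.31 ± 0.20 that turned to 0.01 under spike-in scaling, while Srebf2 stayed below 0 in all 11 settings and Insig1 in the 10 that measured it, its probe being removed at a signal minimum of 50. Stard4, a carrier that moves cholesterol between membranes, had levels of -0.86, -0.66 and -0.51, a difference of -0.20 ± 0.21, with probes at -0.40 and 0.01.

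The cholesterol enzymes were also lower in siNeg cells than in mock cells. The siRNA, its reagent and the culture cannot be told apart here, as the content of the mock transfection is not given. In siNeg cells against mock cells, 17 of 17 enzymes had a difference below 0 (15 of them in each of 11 settings), against 44.5% of 17416 genes measured, with a median of -0.27 where the median of all genes was 0.02. The arrays of these groups were otherwise close, with an SD of 0.13 over the bright genes, where siKrt15 against siNeg had 0.32. Of the 17 enzymes, 13 lay among the lowest 10% of such genes and 10 among the lowest 2.5%. In all, 26 of the 30 genes were below 0, and 1 (Nsdhl) was at least 1.5-fold lower, against 0.856% of all genes and 0.126% of the bright ones. Under spike-in scaling, which moves the median of all genes by -0.16 in this comparison, the enzymes' median moved further below 0. Relative to all genes it lay between -0.32 and -0.24 over 11 settings, of which those that move every gene by 1 constant could not change it.

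By gene, the differences between siNeg and mock cells were small. Those of Sqle, Dhcr7, Ebp, Hsd17b7 and Pmvk were no larger than the scanner's error, and those of the other enzymes were larger. Nsdhl differed by -0.61 ± 0.21 between siNeg cells and mock cells, with probes at -0.79 and -0.43. Mvd differed by -0.48 ± 0.20, Hmgcs1 by -0.37 ± 0.21, Sc5d by -0.37 ± 0.20 and Cyp51 by -0.36 ± 0.20. Idi1, Fdps, Fdft1, Msmo1 and Tm7sf2 lay between -0.27 and -0.26, and Lss, Mvk and Sqle were at -0.23, -0.22 and -0.21. The enzymes thus ran from -0.61, for Nsdhl, to -0.03, for Pmvk. Dhcr7, at -0.13, Ebp, at -0.08, Hsd17b7, at -0.05, and Pmvk, at -0.03, were the closest to 0, and the last 2 did not keep their direction in every setting. The same 3 steps of the pathway gave medians of -0.27, -0.23 and -0.26, so no stretch stood out.

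The fatty acid genes had a median difference of -0.05 for siNeg against mock, which mixes bright and dim genes. Among the bright ones 3 were lower in siNeg cells and in the lowest 10% of bright genes, with Elovl6 at -0.32 ± 0.20, Scd2 at -0.23 ± 0.20 and Fasn at -0.17 ± 0.20. Of the 8708 bright genes of this comparison, 1.01% were lower than Elovl6, 3.79% lower than Scd2 and 8.44% lower than Fasn. The fourth bright gene, Acly, was at -0.05, with probes at -0.17 and 0.08. The genes with dim probes had means of -0.02 for Acss2, 0.10 for Acaca and 0.17 for Scd1. These means depend on the probe, since 3 of 4 probes of Acss2 lay between -0.37 and -0.33 and a dim one at 0.93, and since the brightest probe gave -0.33 for Acss2 and -0.07 for Acaca. The gap between the median of the cholesterol enzymes and that of the fatty acid genes, -0.22, narrowed to -0.03 when only the brightest probe of each gene was used. Srebf1 differed by -0.16, Insig1 by -0.16, Srebf2 by -0.03, Scap by 0.03 and Insig2 by 0.08.

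**Figure D4:**
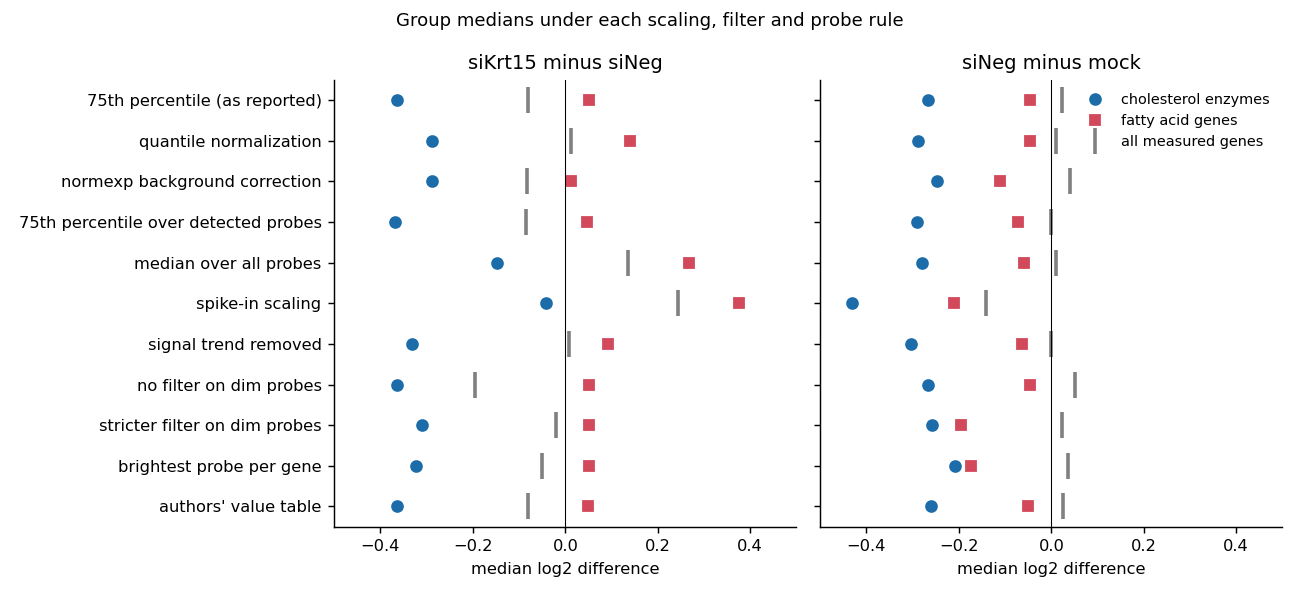
Median log2 difference (x axis) of the cholesterol enzymes (circles), the fatty acid genes (squares) and all measured genes (bars) under 11 ways of scaling, filtering and choosing probes, for siKrt15 minus siNeg (left) and siNeg minus mock (right). For siKrt15 against siNeg the cholesterol median ranges from -0.37 to -0.04 and stays below that of all genes in each setting, while the median of the fatty acid genes stays above 0.

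Against mock cells, siKrt15 cells had the widest distance in the cholesterol enzymes, as this comparison spans both others. The enzymes' median was -0.57, 15 of 17 were below 0 in each of 11 settings, and 8 of the 17, all bright, were at least 1.5-fold lower in the main scaling, against 3.2% of bright genes. Below 0 were 25 of the 30 genes, against 58.1% of all genes. Over the 30 genes 10 were at least 1.5-fold lower, against 7.69% of 17130 genes, and 1, Mvd, was at least 2-fold lower, against 1.24% of all genes. Mvd was 2.08-fold lower (-1.05 ± 0.20), Nsdhl 1.95-fold, Hmgcs1 1.94-fold, Fdps 1.73-fold, Msmo1 1.71-fold and Cyp51 1.67-fold. Pmvk, at 0.19, and Tm7sf2, at 0.11, were above 0 here as well. The fatty acid genes had a median of -0.18, which turned to 0.03 under median scaling, and Fasn, Acly and Srebf1 lay between -0.05 and 0.00. Insig1 was 1.79-fold lower and Srebf2 1.32-fold lower. The comparisons share arrays, so their values stand side by side and are not separate evidence.

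Genes around the pathway were read from lists written out by function. Of 16 measured SREBP targets outside the set, 14 were lower in siKrt15 cells than in siNeg cells, against 60.6% of all genes, and 3 were at least 1.5-fold lower, against 8.63%. The list's median was -0.18, where all genes had -0.08, and it turned to 0.15 under spike-in scaling. The 3 genes were Thrsp (-1.20 ± 0.24), a lipogenic protein whose probe was dim at 12.8 in siKrt15 cells, 24.6 in siNeg cells and 17.6 in mock cells, Lpin1 (-0.63 ± 0.22), a phosphatidate phosphatase, and Elovl5 (-0.60 ± 0.22), which lengthens polyunsaturated fatty acids. For siNeg against mock the same list had a median of -0.11 with 11 of 16 below 0, against 44.5% of all genes. Thrsp, Lpin1 and Elovl5 were there at 0.57, -0.11 and -0.13. The 9 genes of the isoprenoid branch, which use farnesyl diphosphate for dolichol, ubiquinone and prenylated proteins, had a median of -0.07 for siKrt15 against siNeg, with 5 below 0, against 60.6% of all genes, and none past 1.5-fold, against 8.63% lower and 4.8% higher. That median lies beside the -0.08 of all genes and turned to 0.25 under spike-in scaling. The largest differences there were Nus1, of dolichol synthesis, at -0.37, Fntb, a farnesyltransferase subunit, at -0.29 and Pdss1, of ubiquinone synthesis, at 0.23. Their median for siNeg against mock was 0.03.

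A list of 8 genes for SREBP cleavage and INSIG handling lay near all genes. Its median was -0.10 for siKrt15 against siNeg, where all genes had -0.08, with 6 of 8 below 0 against 60.6% of all genes, and it turned to 0.23 under spike-in scaling. For siNeg against mock it was 0.06. Erlin1, a membrane protein of the endoplasmic reticulum that is known to restrain SREBP activation, was the 1 gene of this list past 1.5-fold (8.63% of all genes were as far below), at -0.64 ± 0.21, and its paralog Erlin2 was at -0.22. The brighter of 2 Erlin1 probes had unscaled signals of 3940 in siKrt15 cells and 4376 in siNeg cells, so the mean rests in part on the dimmer probe. Ubxn8, a UBX domain protein, was at -0.53 ± 0.20. For siNeg against mock Erlin1 and Ubxn8 were at 0.03 and 0.11.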

How the data were processed

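Per the labels' protocols, Cy3-labelled material from the total RNA of each culture was put on an Agilent mouse array read in 1 colour. The deposited scanner files hold spot intensity values, made with Agilent Feature Extraction 11.5.1.1 per the submitters' processing notes, and the file headers place all 3 arrays on 1 slide in 1 scan, with probe coordinates on mm9. The processed intensity was background-subtracted by the scanner software, per the file headers. The deposited value table is on a log2 scale, and for 92.4% to 94.0% of probes it lay within 0.01 of the log2 processed signal minus 1 constant per array.

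Control and outlier spots were left out, spots of a probe were averaged, and log2 signals were scaled to each array's 75th percentile (216.0, 180.4 and 191.1 for siKrt15, siNeg and mock). A gene was measured in a comparison where a probe was well above background on both arrays, and its difference is the mean over such probes. Of 56598 probes, 32989 were named through RefSeq accession, 10224 by current symbol, 520 by synonym and 12865 by the file's own name. Python 3.11.15, pandas 2.3.3, statsmodels 0.14.6, R 4.3.3 and limma 3.58.1 were used, and the steps were checked on simulated data. With 1 array per group no test was run. Scaling, background correction, the filter on dim probes and the rule for several probes were varied.

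All 30 genes are named, with Krt15 and up to 3 genes of each list of related genes by size of the siKrt15 against siNeg difference. The genes and lists were chosen with earlier results of these data known. The number of arrays limits the precision.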

Additional observations from a re-analysis of the deposited data

How the results depend on the processing

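No paired analysis was possible because each group has 1 array, and no array could be left out. Over 10 other ways of scaling or filtering and a 2-fold threshold, 131 of 153 group values and counts moved by less than the scanner's error or stayed within 1.5 times, as did 826 of 895 single-gene values. With arrays scaled on the median of all probes or on spike-ins, the siKrt15 against siNeg median was -0.15 or -0.042 for cholesterol enzymes, 0.27 or 0.37 for fatty acid genes, and -0.098 or 0.0089 for regulators, so the last turned direction. The siKrt15 against mock median of fatty acid genes turned to 0.028 under median scaling. The gap between cholesterol enzymes and fatty acid genes stayed below 0 in these settings, at -0.43 to -0.30 for siKrt15 against siNeg, -0.24 to -0.03 for siNeg against mock and -0.51 to -0.31 for siKrt15 against mock. Scalings that move every gene by 1 constant could not change this gap. The 3 genes at least 1.5-fold lower in siKrt15 than siNeg cells became 1 under quantile normalization, normexp correction, removal of the signal trend or a signal minimum of 50, and 0 under median or spike-in scaling or at 2-fold. The 1 such gene in siNeg against mock became 2 under spike-in scaling and 0 under normexp, the signal minimum, the brightest probe or 2-fold. The 10 in siKrt15 against mock became 4 under median scaling, 6 under spike-in scaling and 1 at 2-fold. Median and spike-in scaling move every gene by 1 constant, the 2-fold count is stricter by construction, and the cause of the other changes was not tested.

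Over all genes, the siKrt15 against siNeg counts at 1.5-fold (1477 lower, 821 higher) became 702 and 1188 under quantile normalization, 980 and 657 under normexp, 682 and 1656 under median scaling, 469 and 2471 under spike-in scaling, 711 and 1197 with the trend removed, 286 and 483 with the signal minimum and 4539 and 1312 with no filter. For siNeg against mock (149 lower, 422 higher) they became 29 and 223 under normexp, 401 and 201 under spike-in scaling, 219 and 305 with the trend removed, 12 and 12 with the signal minimum and 1173 and 2076 with no filter. For siKrt15 against mock (1317 lower, 998 higher) they became 655 and 1352, 715 and 853, 531 and 1854, 645 and 1599, 744 and 1337, 391 and 568, and 3908 and 1651 in the order given for siKrt15 against siNeg. Signals under 50 limit Scd1 and Insig1 (1 probe each), 2 probes of Acss2, 5 of Acaca, and one probe each of Hmgcs1, Sqle, Nsdhl, Hsd17b7 and Stard4.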

Other observations

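Genes that burn or export lipid were also read in these cells. Of 16 genes of fatty acid oxidation, 7 were below 0 for siKrt15 against siNeg, against 60.6% of all genes, and none was past 1.5-fold, against 8.63% lower and 4.8% higher. The median was 0.02, where all genes had -0.08. The largest differences were Ppard, a nuclear receptor that induces oxidation genes, at -0.54 ± 0.20, and the acyl-CoA dehydrogenases Acadl and Acadvl, both at 0.29 ± 0.20. For siNeg against mock the median of this list was 0.08. Of 9 genes of sterol efflux, esterification and the oxysterol receptors LXR, 7 were measured, 5 of them below 0 for siKrt15 against siNeg, with medians of -0.03 for siKrt15 against siNeg, and 0.02 when siNeg was set against mock. Mylip, an LXR target that sends lipoprotein receptors to degradation, was at 0.63 ± 0.22 for siKrt15 against siNeg. Of all genes, 4.8% were at least 1.5-fold higher. The Mylip probe was dim, with signals of 43.9 in siKrt15 cells, 23.7 in siNeg cells and 24.3 in mock cells. The receptors Nr1h2 and Nr1h3 were at -0.51 ± 0.26 and -0.46 ± 0.21. The brightest of 3 Nr1h2 probes had unscaled signals of 3963 in siKrt15 cells and 3805 in siNeg cells, so the mean rests in part on dimmer probes. Nr1h3 was dim, with brightest signals of 43.1 and 54.8 in siKrt15 and siNeg cells.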
